A study of Mus musculus with 7 samples.

Results

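The aminoacyl-tRNA synthetase genes were taken from the per-library expression tables by their symbols, which are 1 capital letter followed by ars with nothing, 1, 2 or l after it, or which start with Eprs. The rule found 35 genes among 25164 listed gene names. Of these, 17 symbols ended in 2 and were treated as the mitochondrial class, and the other 18 were treated as the cytosolic class. Gars and Kars, whose genes give both a cytosolic and a mitochondrial enzyme, were kept with the cytosolic class. The rule leaves out Farsa, Farsb and Tarsl2, which are also synthetase genes. Farsa and Farsb are described beside the members. The libraries came from a study of RNA G-quadruplexes, stacked structures of guanine-rich RNA, during meiotic maturation of the mouse oocyte. Fully grown germinal vesicle (GV) oocytes of 4-week-old C57BL/6 females primed with PMSG, a gonadotropin that stimulates follicle growth, were lysed as such (2 libraries), or cultured for 16 h to metaphase II (MII) with the solvent DMSO (3 libraries) or with BYBX, a small molecule that binds and stabilizes RNA G-quadruplexes (2 libraries). The labels give the treatment of the GV libraries as none and mark both control groups as such, while the study's methods speak of DMSO or BYBX for all oocytes collected. The study reports that fewer oocytes released a polar body as the concentration of BYBX rose, and that those that did had abnormal spindles. No source used here says whether every pooled MII oocyte had released a polar body. The part of this in the results was not tested. The dose of BYBX behind these libraries is not given in the RNA sequencing methods. Each library was made from 10 pooled oocytes, and no source used here says whether libraries of a group came from different mice, so that every p-value measures the spread between libraries, which may be technical.

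Aminoacyl-tRNA synthetases join each amino acid to its tRNA, the step that fixes the reading of the genetic code before the ribosome is reached. The cytosol and the mitochondrion carry separate enzyme sets for most amino acids, both encoded in the nucleus. A subset of cytosolic enzymes is held in the multi-synthetase complex by the scaffold proteins AIMP1, AIMP2 and EEF1E1. Fully grown oocytes do not transcribe, and during maturation many of their stored mRNAs are degraded while others are kept, gain poly(A) tails and are translated.

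Values are FPKM (sequenced fragments scaled by the exon length of the gene model and by the mapped fragments of the library) that the authors scaled to an RNA spike-in, so that a level follows the amount of an mRNA per pool of oocytes. Libraries were primed with oligo-dT, and a loss of poly(A) tail and a loss of mRNA cannot be told apart. In such pooled libraries, fewer cells and less RNA per cell cannot be told apart either. The summed FPKM over all entries was 402113 to 489569 in GV, 109732 to 127254 in control MII and 201482 to 246710 in BYBX-treated MII libraries. Oocyte markers were present in all libraries, with the 10 genes summing to 11662 to 14518 FPKM in GV, 1967 to 2160 in control MII and 5729 to 6575 in BYBX-treated MII. Granulosa and cumulus markers (12 genes) summed to 6.52 to 12.8, 2.15 to 2.33 and 2.99 to 3.35 FPKM in the same groups, 1 of them was at 0 in every library and 3, 1 and 1 reached a group mean of 1 FPKM. Markers of erythrocytes (5 genes) summed to at most 1.20 FPKM in any library. The part of these markers in the results was not tested.

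The libraries also differed within groups. The entry Rn45s, the precursor of ribosomal RNA, was listed at 1889 to 2854 FPKM in both GV libraries, the first control MII library and the second BYBX library. It was listed at 0 in control MII libraries 2 and 3 and in BYBX library 1. Over the 9202 entries tested, the deviation of control MII library 1 from its group mean correlated at 0.60 with that of BYBX library 2, and at -0.60 with that of BYBX library 1, which mirrors it because that group has 2 libraries. This split was noticed after the values were seen and is given below beside the genes it moves with.

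In GV oocytes the cytosolic genes were far more abundant than the mitochondrial ones. The sum over the 18 cytosolic genes was 824 FPKM in GV library 1 and 584 FPKM in GV library 2, and that over the 17 mitochondrial genes was 123 and 90.6 FPKM. The median GV mean was 26.5 FPKM for the cytosolic genes and 3.45 FPKM for the mitochondrial ones. Rars, the arginyl enzyme, and Qars, the glutaminyl enzyme, led the order at 179 ± 19.8 and 161 ± 48.6 FPKM (SD, n = 2), and their libraries overlapped. Nars followed at 55.2 FPKM and Fars2, the mitochondrial phenylalanyl enzyme, at 47.7 FPKM, also with overlapping libraries. At the other end stood Yars at 0.279 FPKM and Hars2 at 0.116 FPKM. Of the 35 genes, 30 had a GV mean of at least 1 FPKM, 15 in control MII and 22 in BYBX-treated MII.

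**Figure D1:**
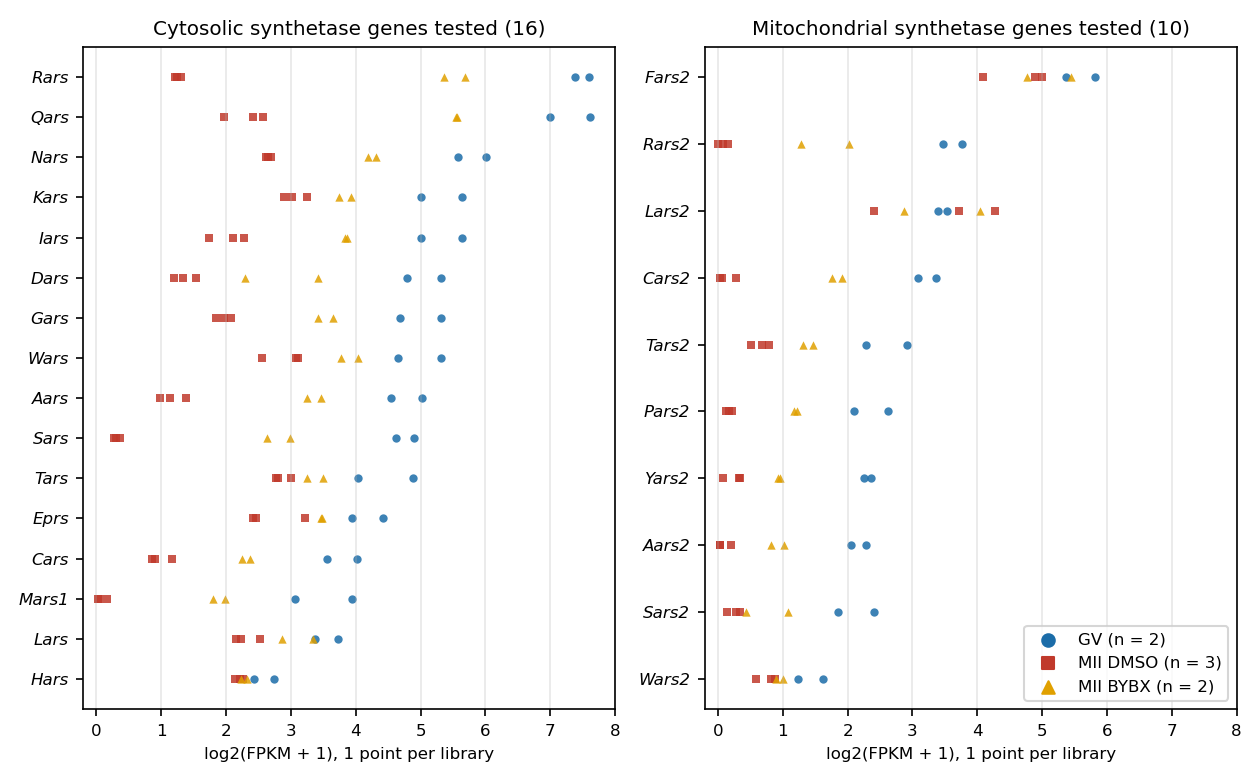
Level in each library of the 26 synthetase genes that reached the level needed for the test, as log2(FPKM + 1), with 16 cytosolic genes on the left and 10 mitochondrial genes on the right, ordered by their GV mean. Blue circles are the 2 GV libraries, red squares the 3 control MII libraries and yellow triangles the 2 BYBX-treated MII libraries, and for most genes the yellow triangles lie between the red squares and the blue circles, while the 3 colours mix for Lars2.

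Because BYBX binds RNA G-quadruplexes, the mRNAs were searched for the sequence pattern of such structures, in which 4 stretches of 3 or more G are parted by 1 to 7 bases, on the sense strand of 1 GENCODE vM21 transcript per gene. Of the 35 synthetase transcripts, 3 held a match, against 17.8% of the 8746 tested gene names with a transcript. The matches are shown with the G runs in capitals, since they are the only places in the family where the pattern occurs in the transcripts used. They lie in the 3′ UTR of Aars at chr8:111057043-111057069 (plus strand), in the coding sequence of Aars2 at chr17:45508912-45508940 (plus strand) and in the coding sequence of Cars2 at chr8:11550606-11550634 (minus strand), on GRCm38.
Aars: GGGttactGGGcagtGGGGaaggcGGG
Aars2: GGGagatGGGagacactGGGccttgtGGG
Cars2: GGGccgcgctGGGtctcGGGcggcgcGGG
The Aars match also lies in an exon of Exosc6, which shares 1326 exon bases with Aars on the same strand, 23.1% of the exon bases of Aars. A match describes letters and not a structure. No 5′ UTR of the family held the pattern, against 7.47% of all transcripts, and 3.24% and 8.67% of all transcripts held it in the coding sequence and in the 3′ UTR.

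The last 100 bases of the transcripts were searched in the same way for TTTTAT or TTTTAAT, the cytoplasmic polyadenylation element that marks mRNAs for tail lengthening in oocytes, and for the cleavage signals AATAAA or ATTAAA, which can overlap TTTTAAT. The element was found in 6 of the 35 genes (Aars, Kars, Lars, Mars2, Rars2 and Sars), against 20.2% of all transcripts. A cleavage signal was found in 25 of 35, against 81.3%. Of the 6 genes with the element, Kars, Lars and Mars2 also held a cleavage signal, and Aars, Rars2 and Sars did not. The 3′ UTRs of the family were short, with a median of 393 bases against 929 over all transcripts. The median was 316 bases in the cytosolic and 724 in the mitochondrial class. Over the synthetase genes tested, as those transcripts were, it was 287.5 bases. Examples from 3′ UTRs are shown with the element in capitals for Kars (chr8:111993464-111993493, minus strand), Sars (chr3:108424918-108424947, minus strand) and Rars2 (chr4:34660077-34660106, plus strand), which differ widely in how much mRNA remained at MII, as given below.
Kars: taaagaagttctTTTTATtcctcgttacca
Sars: taacagcatgaaTTTTATggttgggggcca
Rars2: gataaatatgttTTTTATgcaaatgagttc
For Qars (chr9:108515904-108515933, plus strand) and Eprs (chr1:185428320-185428349, plus strand), which lack the element in this window, the cleavage signal is in capitals.
Qars: acactccgtttcAATAAAgaataactaaat
Eprs: aacagccagggtAATAAAaaccatgaacta

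The first comparison asked how the synthetase mRNAs changed from GV to control MII oocytes. The mean of 34 of the 35 genes was lower at MII, and for the same number the GV and MII libraries did not overlap. Over all 18497 entries with a value over 0, 74.8% showed such a separation. The exception was Lars2, the mitochondrial leucyl enzyme. The median gene kept 7.71% of its GV level in the cytosolic class and 4.77% in the mitochondrial class, against 12.5% over all entries. Of the 35 genes, 26 reached the 1 FPKM needed for the limma test on log2(FPKM + 1), and 24 of these fell and 0 rose at an adjusted p under 0.05. Among all 9202 entries tested, 88.3% fell and 0.272% rose, so that the share of synthetase genes that fell was near the background. These counts are those of the deposited scale: with every library set to the same total FPKM 17 fell and 3 rose, against 49.5% and 23.3% of all entries, and with every library centred on its median 12 fell and 7 rose, against 26.7% and 48.8%. The median fitted difference was -3.09 for the 16 cytosolic genes tested, -2.0 for the 10 mitochondrial genes tested and -1.83 over all entries. A gene could pass the filter through its GV level alone, and a fitted difference of a low gene is held back by the added 1 FPKM. With a pseudocount of 0.1 the order of the class medians turned, as given at the end. Both then lay below the median of -2.53 over all entries.

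Rars (chr11:35808381-35834506) had the largest fitted fall of the genes tested. Its FPKM was 193 and 165 in GV and 1.36, 1.46 and 1.31 in control MII. The 2 groups stood far apart, with 0.769% of the GV mean left (difference -6.24, SE 0.24, adjusted p = 2.45e-10). Of the genes tested, Rars2 and Mars1 kept a smaller share of their lower GV means, 0.492% and 0.519%, and the added 1 FPKM holds back their differences more. Qars (chr9:108507706-108515941), which has no partner of its own in the mitochondrion, was at 195 and 126 FPKM in GV and at 4.36, 2.91 and 4.95 in control MII. That was 2.54% of its GV mean (difference -4.98, SE 0.28, adjusted p = 1.53e-09).

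Other abundant cytosolic genes fell with groups that did not overlap. Nars, the asparaginyl enzyme, was at 63.6 and 46.8 FPKM in GV and at 5.27, 5.11 and 5.47 in control MII. The difference was -3.14 (SE 0.24, adjusted p = 2.82e-08). Gars (chr6:55038007-55079500), the glycyl enzyme of both compartments, was at 39.0 and 24.6 FPKM in GV and at 3.21, 2.9 and 2.59 in control MII, a difference of -3.04 (SE 0.26, adjusted p = 6.83e-08). Kars (chr8:111993443-112011323), the lysyl enzyme of both compartments, was at 48.9 and 31.1 FPKM in GV and at 8.49, 6.42 and 7.11 in control MII. Kars fell less than these (difference -2.27, SE 0.26, adjusted p = 1.83e-06) and, of the 35 genes, only Fars2 and Lars2 had a higher mean in control MII, where the Kars libraries overlapped those of other genes such as Wars and Tars.

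A small number of cytosolic genes kept much more of their mRNA. Hars, the histidyl enzyme, was at 5.65 and 4.39 FPKM in GV and at 3.41, 3.65 and 3.77 in control MII. The GV libraries lay above the MII libraries, with 71.9% of the GV mean left, but the difference of -0.38 (SE 0.22) missed the threshold (adjusted p = 0.113) and, of the fits with 1 library left out, passed it only without GV library 2 (-0.53, adjusted p = 0.0499). Hars shares 195 exon bases with Hars2 on the opposite strand, 9.80% of its exon bases, and the counting is not stated to use strand. Lars, the leucyl enzyme, was at 12.3 and 9.38 FPKM in GV and at 3.45, 4.77 and 3.70 in control MII (difference -1.25, SE 0.25, adjusted p = 0.000356). Eprs (chr1:185363044-185428360), a single protein with glutamyl and prolyl enzymes, was at 20.5 and 14.3 FPKM in GV and at 8.35, 4.34 and 4.53 in control MII, with the first MII library well above the others (difference -1.48, SE 0.29, adjusted p = 0.000254). Tars, the threonyl enzyme, was at 28.5 and 15.3 FPKM in GV and at 7.01, 6.0 and 5.82 in control MII, a difference of -1.59 (SE 0.28, adjusted p = 9.30e-05).

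In the mitochondrial class, Rars2 and Cars2 had the largest fitted falls. Rars2 (chr4:34614957-34660167) was at 12.6 and 10.0 FPKM in GV and at 0.0527, 0 and 0.114 in control MII, a difference of -3.54 (SE 0.24, adjusted p = 6.81e-09). Cars2 (chr8:11513977-11550783), the cysteinyl enzyme, was at 9.28 and 7.50 FPKM in GV and at 0.0489, 0.0202 and 0.212 in control MII, a difference of -3.10 (SE 0.20, adjusted p = 4.71e-09). Of the 31-base words of its transcript, 19.7% also occur in Naxd transcripts. Sars2, the seryl enzyme, was at 4.31 and 2.59 FPKM in GV and at 0.265, 0.107 and 0.208 in control MII (difference -1.87, SE 0.23, adjusted p = 2.67e-06). All 3 had GV libraries far above the MII libraries.

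Wars2, Fars2 and Lars2 stood apart at the other end of that class. Wars2, the tryptophanyl enzyme, was at 2.08 and 1.35 FPKM in GV and at 0.498, 0.765 and 0.834 in control MII (difference -0.67, SE 0.19, adjusted p = 0.00457). Fars2 (chr13:36117412-36726280) was at 55.3 and 40.2 FPKM in GV and at 16, 28.6 and 31 in control MII. The groups did not overlap, and the difference of -0.93 (SE 0.33, adjusted p = 0.0158) lost its call without GV library 1 (-0.70, adjusted p = 0.172) and without control MII library 1 (-0.64, adjusted p = 0.0572). Lars2 (chr9:123366927-123462666) was at 10.6 and 9.48 FPKM in GV and at 4.28, 18.3 and 12.2 in control MII. The first MII library lay below GV and the other MII libraries above it, and the fitted difference was 0.00 (SE 0.46, adjusted p = 0.993).

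**Figure D2:**
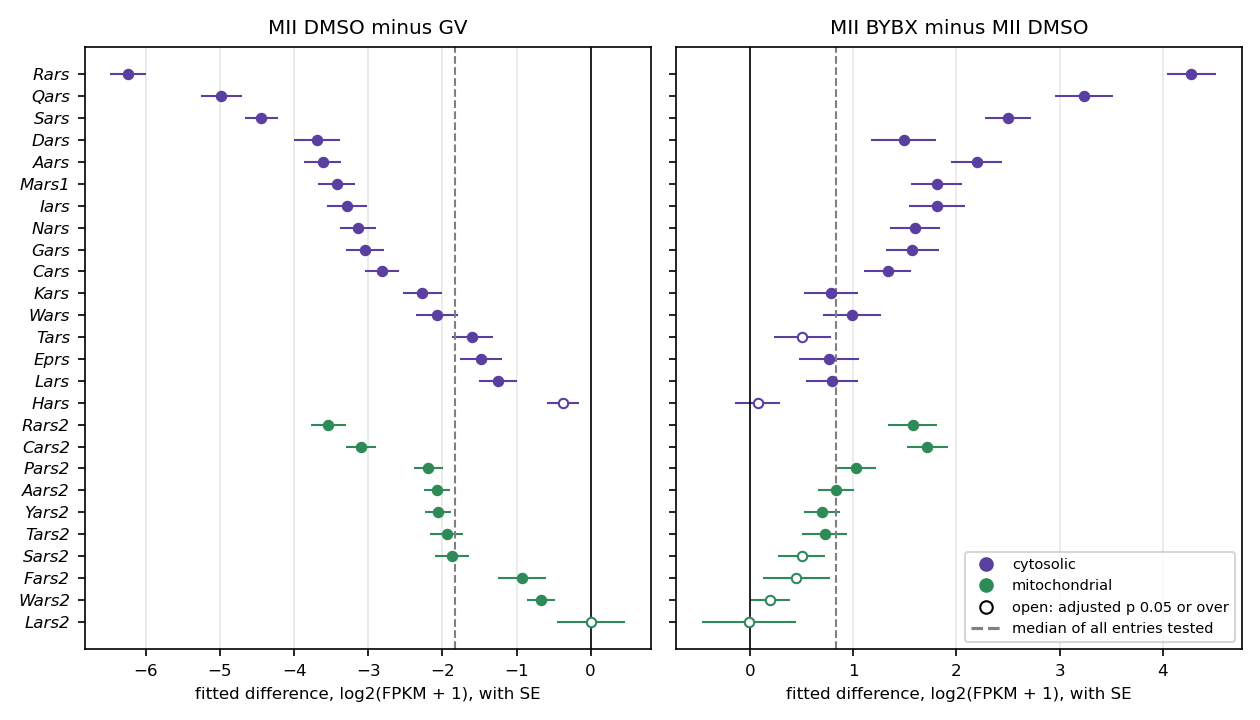
Fitted difference in log2(FPKM + 1) with its standard error for the 26 synthetase genes tested, MII DMSO minus GV on the left and MII BYBX minus MII DMSO on the right, with cytosolic genes in purple above the mitochondrial genes in green. Open points did not reach an adjusted p under 0.05, the dashed line is the median of all 9202 entries (-1.83 and 0.84), and Rars and Qars lie farthest from it in both panels.

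The second comparison asked how BYBX changed the levels at MII. The mean of 34 of the 35 genes was higher with BYBX, and for 31 genes both BYBX libraries lay above all 3 control MII libraries, against 55% of all 18497 entries. The exceptions to the separation were Hars, Fars2, Lars2 and Mars2. In the limma test 20 of 26 genes rose and 0 fell, against 65.2% and 0.0326% of all entries. With every library set to the same total FPKM 14 rose and 1 fell, against 39.9% and 8.22% of all entries, and with median centring 6 rose and 9 fell, against 18.4% and 43.9%. By class, 14 of 16 cytosolic and 6 of 10 mitochondrial genes rose. The median difference was 1.53 for the cytosolic genes tested, 0.71 for the mitochondrial genes tested and 0.84 over all entries. Most mitochondrial genes tested were under 1 FPKM in control MII, where the added 1 FPKM holds back a difference. With a pseudocount of 0.1 the class medians lay closer together, as given at the end, and both lay above the median of 1.29 over all entries. Both comparisons share the control MII libraries.

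Rars and Qars had the largest fitted rises. By the ratio of the BYBX mean to the control MII mean, some genes that were low in control MII stood higher. Others that were low there did not, such as Sars2 at 3.78-fold and Wars2 at 1.34-fold. Mars1 was at 47.9-fold and Rars2 at 40.4-fold, against 32.9-fold for Rars and 11.3-fold for Qars. Rars was at 50.7 and 40 FPKM with BYBX against 1.31 to 1.46 in control MII, a difference of 4.28 (SE 0.24, adjusted p = 2.97e-08), and Qars at 45.7 and 46.2 FPKM against 2.91 to 4.95, a difference of 3.23 (SE 0.28, adjusted p = 4.66e-07). Both had the highest mean of the 35 genes in BYBX-treated MII oocytes, at 25.3% and 28.6% of their GV means. Nars was at 18.9 and 17.2 FPKM with BYBX (difference 1.60, SE 0.24, adjusted p = 6.63e-05). Gars was at 11.6 and 9.64 FPKM with BYBX (difference 1.57, SE 0.26, adjusted p = 0.000124).

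Kars, Lars and Eprs rose by less, and their calls rested on single libraries. Kars was at 12.4 and 14.3 FPKM with BYBX (difference 0.78, SE 0.26, adjusted p = 0.0186), and its call was lost without control MII library 2 (adjusted p = 0.0665) or BYBX library 2 (adjusted p = 0.0981). Lars was at 9.19 and 6.26 FPKM (difference 0.80, SE 0.25, adjusted p = 0.0131), and its call was lost without BYBX library 1, at an adjusted p of 0.147. Eprs was at 9.98 and 10.2 FPKM, above all control libraries (difference 0.77, SE 0.29, adjusted p = 0.0308). The Eprs call was lost without control MII library 2 (0.62, adjusted p = 0.108), control MII library 3 (0.65, adjusted p = 0.102), BYBX library 1 (0.78, adjusted p = 0.0886) or BYBX library 2 (0.75, adjusted p = 0.0888).

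Tars and Hars did not pass. Tars was at 8.50 and 10.2 FPKM with BYBX, above all 3 control libraries, with a difference of 0.51 (SE 0.28, adjusted p = 0.120). Hars was at 3.69 and 4.01 FPKM, within and just above the control range of 3.41 to 3.77 FPKM, with a difference of 0.07 (SE 0.22, adjusted p = 0.765).

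Among the mitochondrial genes Cars2 had the largest fitted rise, at 2.79 and 2.40 FPKM with BYBX (difference 1.72, SE 0.20, adjusted p = 6.01e-06). Rars2 followed at 1.43 and 3.08 FPKM (difference 1.58, SE 0.24, adjusted p = 5.96e-05). By the ratio of means Rars2 stood higher, at 40.4-fold against 27.7-fold for Cars2. Sars2 was at 0.351 and 1.11 FPKM, above the controls in both libraries, with a difference of 0.50 (SE 0.23, adjusted p = 0.0647) that passed without BYBX library 1 (0.82, adjusted p = 0.00675). Wars2 was at 1.02 and 0.865 FPKM, just above the highest control library at 0.834, with a difference of 0.20 (SE 0.19, adjusted p = 0.368). Fars2 was at 42.6 and 26.4 FPKM and Lars2 at 15.5 and 6.28 FPKM, both overlapping the controls, with differences of 0.45 (SE 0.33, adjusted p = 0.232) and -0.01 (SE 0.46, adjusted p = 0.986).

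The genes with a G-quadruplex pattern shown above kept less than the median gene of the family in control MII. Aars kept 4.68% of its GV mean in control MII and 34.6% with BYBX, Aars2 1.85% and 25.7%, and Cars2 1.12% and 30.9%. The median over the 35 genes was 7.52% and 32.7%, so that with BYBX only Aars lay above it. With 3 genes this is a description. The 6 genes with a polyadenylation element ran from 0.492% (Rars2) and 0.931% (Sars) to 36.7% (Lars) of their GV means in control MII. Of these, Kars, Lars and Mars2 also hold a cleavage signal in the window and kept 18.3%, 36.7% and 35.2%. Aars, Rars2 and Sars hold none there and kept 4.68%, 0.492% and 0.931%. With so few genes this too is a description, and a link was not tested.

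Lars2 and Fars2 moved with the state of the Rn45s entry. Among the 5 MII libraries, Lars2 was at 4.28 and 6.28 FPKM where Rn45s was listed above 0 and at 12.2, 15.5 and 18.3 FPKM where it was listed at 0. Fars2 was at 16 and 26.4 FPKM in the former and at 28.6, 31 and 42.6 FPKM in the latter. For both genes these sets of MII libraries did not overlap. Of all 35 genes, 13 had the higher mean in the libraries without a listed Rn45s value in both MII groups. Among these, Lars2 had a 3.56-fold higher mean there in control MII and a 2.47-fold higher mean with BYBX. Fars2 stood at 1.86-fold and 1.62-fold in the same order. Genes of low level in control MII also differed, such as Vars2 (1.96-fold and 5.29-fold), Aars2 (4.81-fold and 1.37-fold) and Cars2 (2.37-fold and 1.16-fold). Others differed little, such as Aars at 1.08-fold and 1.18-fold. The share of all entries with the higher mean in both groups was not computed, so that the count of 13 is a description. Both GV libraries list Rn45s, so GV gives no such comparison.

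Within the libraries that list Rn45s, Lars2 fell to 42.7% of its GV mean in control MII and stood at 62.7% in BYBX-treated MII. Fars2 stood at 33.6% and 55.2% there. These MII values are those of single libraries, control MII library 1 and BYBX library 2. The BYBX side at 0 is a single library too, BYBX library 1. The ratio of BYBX to control MII was 1.47 for Lars2 where Rn45s was listed and 1.02 where it was not, and 1.64 and 1.43 for Fars2. With the state of Rn45s as a term of the model, an alternative chosen after the values were seen, Lars2 was called lower in control MII than in GV (difference -0.94, adjusted p = 0.00454) and Fars2 higher with BYBX (0.58, adjusted p = 0.0217). Why the entry is at 0 in some libraries was not tested.

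**Figure D3:**
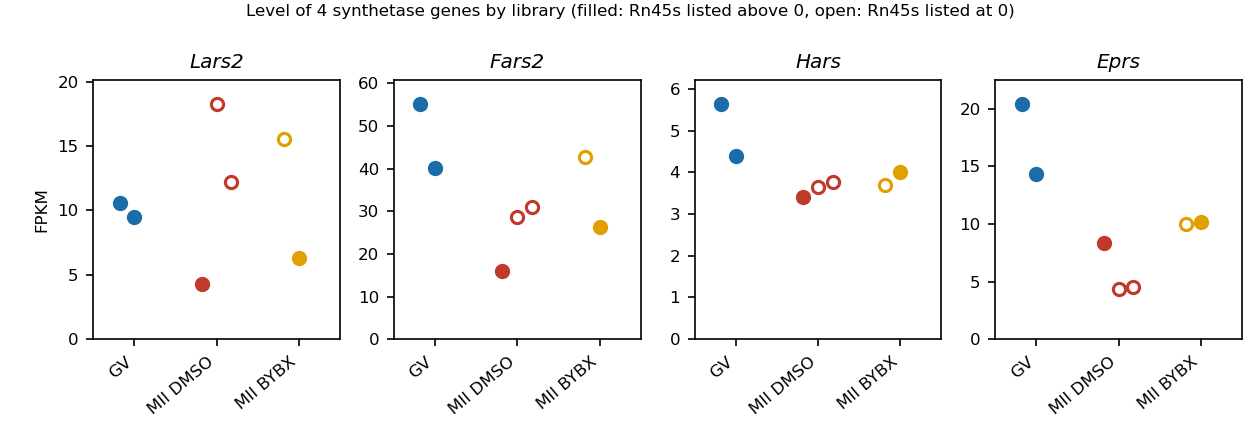
FPKM in each library of Lars2, Fars2, Hars and Eprs, whose fitted difference from GV to control MII was nearer to 0 than the median of the tested genes of their class. Filled points are libraries that list Rn45s above 0 and open points libraries that list it at 0, and within each MII group the open points lie above the filled ones for Lars2 and Fars2, while for Eprs they lie below.

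The make-up of the synthetase mRNA pool differed between groups. Summed over the class, cytosolic genes gave 57.9, 51.2 and 54.6 FPKM in control MII and 227 and 215 FPKM with BYBX. The mitochondrial genes gave 22.6, 49.6 and 46.0 FPKM in control MII and 71.3 and 48.6 FPKM with BYBX, and the groups overlapped. Of the summed FPKM of all 35 genes, the mitochondrial class held 12.9% and 13.4% in GV, 28.1%, 49.2% and 45.7% in control MII and 23.9% and 18.4% with BYBX.

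The share also moved with the Rn45s entry, at 28.1% in the control MII library that lists it and 49.2% and 45.7% in those at 0, and at 18.4% and 23.9% with BYBX in the same order, and the part of that split in the share was not tested. The rise of the mitochondrial share rested on Fars2 and Lars2, which held 53.7% and 54.8% of the mitochondrial sum in GV, 89.8% to 94.7% in control MII and 67.2% and 81.6% with BYBX. Without them the mitochondrial share was 6.43% and 6.55% in GV, 3.84% to 4.88% in control MII and 5.48% and 6.90% with BYBX. Rars and Qars held 47.1% and 49.9% of the cytosolic sum in GV, 8.53% to 11.5% in control MII and 42.5% and 40.1% with BYBX. The shares do not depend on how libraries are scaled against each other.

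**Figure D4:**
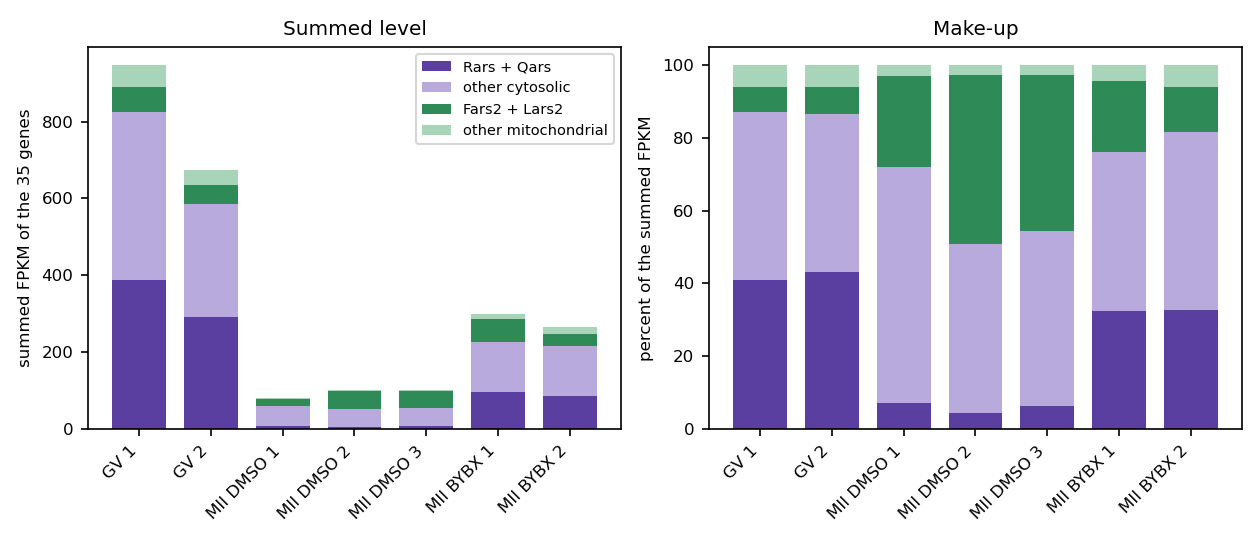
Summed FPKM of the 35 synthetase genes in each library (left) and its make-up in percent (right), divided into Rars plus Qars, the other cytosolic genes, Fars2 plus Lars2 and the other mitochondrial genes. The dark purple part (Rars plus Qars) is small in the 3 control MII libraries and large in all other libraries, and the dark green part (Fars2 plus Lars2) takes its highest percent in control MII libraries 2 and 3.

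The partners for the same amino acid were set side by side for the 14 pairs with both genes in the family. The cytosolic gene had the higher mean in 12 of 14 pairs in GV, 10 in control MII and 11 with BYBX. Vars and Yars were the lower partners in GV, with ratios of 0.634 to Vars2 and 0.071 to Yars2. Cars stood close to Cars2, with ratios of 1.64 and 1.43 in the GV libraries and 1.35 and 1.74 with BYBX, and 5.91 to 40.3 in control MII, where Cars2 was below 0.3 FPKM. Lars and Lars2 had a ratio of 1.16 and 0.990 in GV, 0.805, 0.261 and 0.303 in control MII and 0.592 and 0.997 with BYBX. Rars exceeded Rars2 in every library in which Rars2 was above 0, by 15.3-fold and 16.4-fold in GV and 35.5-fold and 13.0-fold with BYBX. Wars exceeded Wars2 by 18.7-fold and 17.9-fold in GV, 8.92-fold to 9.97-fold in control MII and 15.2-fold and 14.7-fold with BYBX.

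The cytosolic phenylalanyl enzyme, the counterpart of Fars2, is made of subunits encoded by Farsa and Farsb, which lie outside the symbol rule. Farsa was at 101 and 76.4 FPKM in GV, 6.02 to 6.83 in control MII and 24.4 and 22.7 with BYBX, and Farsb at 143 and 96.5, 30.5 to 42.6 and 67.2 and 55.9 FPKM. Both fell (-3.58 and -1.63, adjusted p = 8.49e-09 and 6.52e-05) and both rose with BYBX (1.72 and 0.71, adjusted p = 3.76e-05 and 0.0354), but both directions of Farsb turned on the other scales. The Farsb rise lost its call without control MII library 2 or 3 or either BYBX library, at an adjusted p from 0.0561 to 0.194. In control MII the lowest Farsb library lay far above the highest Farsa library, while in GV the libraries of the subunits overlapped.

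The 8 enzymes of the multi-synthetase complex (Eprs, Iars, Lars, Mars1, Qars, Rars, Kars and Dars) all fell from GV to control MII, with differences from -6.24 to -1.25, and all rose with BYBX, with differences from 0.77 to 4.28, on the deposited scale, where 88.3% of all entries fell and 65.2% rose. At the same total FPKM, where 49.5% of all entries fell and 39.9% rose, 5 fell and 4 rose with BYBX, and after median centring 5 fell, 2 were higher in control MII than in GV and 3 rose with BYBX, against 26.7%, 48.8% and 18.4% of all entries. Iars shares 17.4% of its 31-base words with the pseudogene Gm4849, and Mars1 shares 68 exon bases with Ddit3 on the opposite strand. The 3 scaffold genes Aimp1, Aimp2 and Eef1e1 also fell (-4.79 to -3.35) and rose (1.40 to 2.97), and on both other scales all 3 fell and 2 rose. Aimp2, the scaffold at the centre of the complex, was at 48.5 and 41.8 FPKM in GV, 0.527, 0.958 and 0.535 in control MII and 11.2 and 12.9 with BYBX.

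Of 11 other genes for tRNA charging, editing and tRNA ends, 8 were tested, all 8 fell to control MII and 7 rose with BYBX on the deposited scale, against 88.3% and 65.2% of all entries. At the same total FPKM 4 fell and 3 rose, against 49.5% and 39.9%. After median centring 2 fell and 4 were higher in control MII, against 26.7% and 48.8%, while 2 rose and 4 fell with BYBX, against 18.4% and 43.9%. Pstk, the kinase on the way to selenocysteinyl-tRNA, fell and rose steeply (differences of -5.31 and 3.32), as did Aarsd1, an editing protein related to Aars (-5.15 and 3.54). Sepsecs, which completes selenocysteinyl-tRNA, moved less (-1.62 and 0.62), both directions turned on the other scales, and the rise lost its call without any 1 of the 5 MII libraries (adjusted p from 0.0616 to 0.204). Of 12 genes of the amino acid response, which is triggered by uncharged tRNA and includes synthetase genes among its targets in other cells, 8 were tested, all 8 fell and 4 rose with BYBX on the deposited scale, against 88.3% and 65.2% of all entries. At the same total FPKM 4 fell and 2 were higher in control MII, against 49.5% and 23.3%, with 4 higher and 1 lower with BYBX, against 39.9% and 8.22%. After median centring 3 fell and 5 were higher in control MII, against 26.7% and 48.8%, with 3 higher and 4 lower with BYBX, against 18.4% and 43.9%. Atf4, its transcription factor, was at 431 and 365 FPKM in GV, 10.2, 13.1 and 16.3 in control MII and 166 and 108 with BYBX. Eif2ak4, the kinase that senses uncharged tRNA, was at 15.6 and 8.42, 5.36 to 6.80 and 8.65 and 8.75 FPKM, and its difference with BYBX of 0.42 did not pass (adjusted p = 0.188).

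The third comparison set BYBX-treated MII against GV oocytes. Of the 26 genes tested, 20 were lower with BYBX and 0 were higher, against 69.2% and 0.315% of all entries. At the same total FPKM 3 were lower and 0 higher, against 13.3% and 5.3%, and after median centring 4 were lower and 2 higher, against 13.6% and 15.2%. On the deposited scale the other 6 were Eprs, Lars and Hars in the cytosolic class and Fars2, Wars2 and Lars2 in the mitochondrial class. Over all 35 genes, both GV libraries lay above both BYBX libraries for 31, against 64.2% of all entries, with Fars2, Iars2, Lars2 and Mars2 as exceptions. The median differences were -1.47 for the cytosolic genes tested, -1.23 for the mitochondrial genes tested and -0.99 over all entries. The added 1 FPKM holds back the differences of low genes here as well.

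Genes under the filter included Vars and Yars of the cytosolic class and Ears2, Hars2, Iars2, Mars2, Nars2 and Vars2 of the mitochondrial class. Hars2 had the lowest GV mean of the family, at 0.116 FPKM, and was listed at 0 in all 3 control MII libraries. Mars2 differed widely between the BYBX libraries, at 0.064 and 1.33 FPKM. Iars2 shares 2034 exon bases with Rab3gap2 on the opposite strand, 30.5% of its exon bases, and without strand their reads cannot be told apart. In a fit without the filter, which took in all 35 genes, 31 were lower and 0 higher in control MII than in GV, against 65% and 0.114% of 18497 entries. With BYBX 20 were higher and 0 lower than in control MII, against 31.3% and 0.0162%, and 26 were lower and 0 higher than in GV, against 45.1% and 0.314%.

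The directions above are those of the deposited scale. Rescaling every library to the same total FPKM moved the median of all entries from -1.83 to -0.56 for MII DMSO minus GV and from 0.84 to 0.34 for BYBX minus DMSO, and centring on the median moved it to 0.47 and -0.44. The fall from GV to control MII was called on all 3 scales for 12 of the 26 genes tested, 10 cytosolic and 2 mitochondrial. The share of all entries called on all 3 scales was not computed, but is at most the 26.7% that fell after median centring. The 2 mitochondrial genes were Rars2 and Cars2. This split by class cannot be read as a difference between classes, because the added 1 FPKM limits the fall of low genes. Aars2, with a GV mean of 3.49 FPKM, kept 1.85% of it in control MII. Its difference still went from -2.08 on the deposited scale to 0.23 after median centring. The rise with BYBX was called on all 3 scales for 6 of the 26 genes, which were Rars, Qars, Sars, Aars, Mars1 and Cars2. For all entries this share is at most the 18.4% that rose after median centring. After rescaling to the same total, Hars, Fars2 and Lars2 were called higher in control MII than in GV and Hars lower with BYBX than with DMSO. After median centring Eprs, Lars, Tars and Wars2 were also called higher in control MII than in GV, and 9 genes, 2 cytosolic and 7 mitochondrial, were called lower with BYBX. Centring was done on log2(FPKM + 1), where it is not a plain rescaling for genes of low level. Among those called lower with BYBX were Aars2 and Yars2, whose means were 13.9-fold and 4.91-fold higher with BYBX on the deposited scale.

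**Figure D5:**
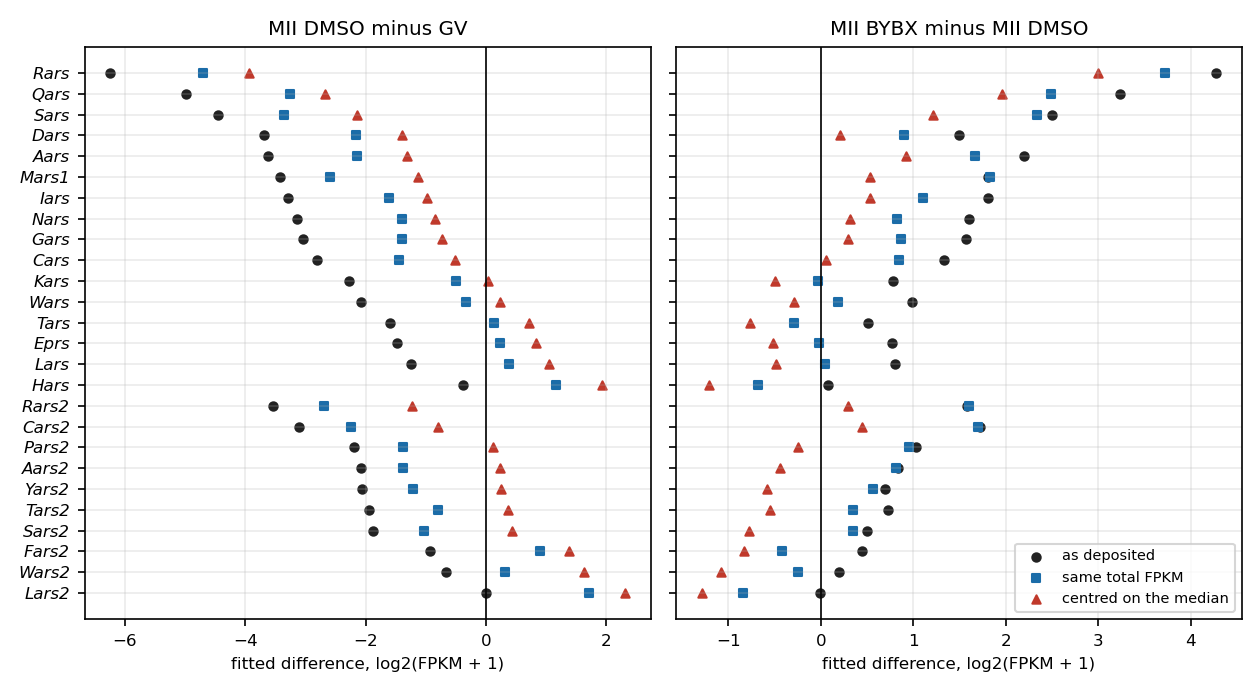
Fitted difference in log2(FPKM + 1) of the 26 genes tested on the deposited scale (black circles), after rescaling to the same total FPKM (blue squares) and after centring each library on its median (red triangles). Rars lies at -6.24, -4.70 and -3.94 on the left and at 4.28, 3.72 and 3.0 on the right, while Hars, Fars2 and Lars2 cross to the other side of 0 or start at it.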

How the data were processed

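The 7 Smart-seq2 libraries were used as deposited. Per the labels and methods, the authors trimmed reads with Trim Galore 0.6.7, aligned them to mm10 with HISAT2 2.2.1 and computed FPKM with Cufflinks 2.2.1 on UCSC gene models. The deposited FPKM were scaled to ERCC spike-in RNA, and batches were set to their own GV libraries. The factors and the batch of a library are not given in the sources used here. Cufflinks values keep no whole reads, so the depth is unknown and no counting interval is given. Of 25912 entries, 4 with a cell that held no number were dropped. Levels were compared as log2(FPKM + 1) with limma 3.58.1 in R 4.3.3 (lmFit, eBayes with trend), over the 9202 entries with a mean of the 3 group means of at least 1 FPKM, with 7 libraries in 1 model (4 residual degrees of freedom) and Benjamini-Hochberg adjustment. The fit of MII DMSO minus GV was tested on simulated data. Of 200 changed genes 117 were recovered, with 4 false calls. It recovered 87.9% of 4-fold but 33.9% of 2-fold changes, so that a gene not called may still have changed. Medians over genes are descriptions. Tables and plots were made in Python 3.11.15 (pandas 2.3.3, numpy 2.4.6, matplotlib 3.10.9). Positions and transcripts are from GENCODE vM21 on GRCm38 (mm10), 1 coding transcript per gene. Values by library were given for Eprs, Gars, Kars and Qars, the 3 highest GV means of each class, the 2 highest and 2 lowest fitted differences of each class in the first 2 comparisons, and tested genes not called. Farsa, Farsb, Aimp2, Pstk, Aarsd1, Sepsecs, Atf4, Eif2ak4, Mars2 and Rn45s were chosen after their values were seen. The members and lists were chosen with earlier results of these data known. Other settings tried were 0.1 as pseudocount, no filter or one of 5 FPKM, 2 rescalings, fits of 2 groups, a replicate block, no trend, a 2-fold minimum, each library left out, and, added after the values were seen, a term for Rn45s. The values of 1 gene under the filter are not reported here.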

Additional observations from a re-analysis of the deposited data

How the results depend on the processing

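The scale was the setting that moved most, and the shares of all entries called on each scale are given above. With every library at the same total FPKM, 3 genes were called up and 17 down from GV to control MII, 1 down from DMSO to BYBX and 3 down from GV to BYBX. The median differences were then -1.42, 0.86 and -0.53 for the cytosolic genes in the order MII DMSO minus GV, BYBX minus DMSO and BYBX minus GV, and -1.12, 0.46 and -0.50 for the mitochondrial genes. With median centring 7 were called up and 12 down from GV to control MII, 6 up and 9 down from DMSO to BYBX, and 2 up and 4 down from GV to BYBX. The medians were -0.79, 0.25 and -0.45 for the cytosolic genes and 0.30, -0.57 and -0.20 for the mitochondrial genes, whose first and second values turned direction.

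At the same total FPKM the difference of MII DMSO minus GV turned to 0.23 for Eprs, 1.16 for Hars, 0.38 for Lars, 0.14 for Tars, 0.90 for Fars2, 0.31 for Wars2, 0.23 for Farsb, 0.0728 for Sepsecs and 0.91 for Eif2ak4. That of BYBX minus DMSO turned to -0.0192 for Eprs, -0.0274 for Kars, -0.67 for Hars, -0.29 for Tars, -0.42 for Fars2, -0.24 for Wars2, -0.17 for Farsb, -0.16 for Sepsecs and -0.39 for Eif2ak4. With median centring MII DMSO minus GV turned to 0.82 for Eprs, 0.0323 for Kars, 1.93 for Hars, 1.06 for Lars, 0.71 for Tars, 1.38 for Fars2, 1.63 for Wars2, 0.43 for Sars2, 0.67 for Farsb, 0.68 for Sepsecs and 1.52 for Eif2ak4. BYBX minus DMSO turned to -0.51 for Eprs, -0.49 for Kars, -1.20 for Hars, -0.48 for Lars, -0.77 for Tars, -0.83 for Fars2, -1.08 for Wars2, -0.78 for Sars2, -0.57 for Farsb, -0.66 for Sepsecs and -0.86 for Eif2ak4.

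Lars2, near 0 in both comparisons, changed sign under other settings as well. MII DMSO minus GV was -0.0194 with a pseudocount of 0.1, -0.13 with a replicate block, -0.94 with the Rn45s term, -0.07 without GV library 2, -0.40 without control MII library 2, -0.13 without control MII library 3 and, on the other side of 0, 0.54 without control MII library 1. BYBX minus DMSO was 0.00155 with a pseudocount of 0.1, 0.12 with a replicate block, 0.23 with the Rn45s term, 0.39 without control MII library 2, 0.12 without control MII library 3 and 0.58 without BYBX library 2. Only the Rn45s term gave a call among these, for MII DMSO minus GV. No other gene named here turned direction outside the 2 rescalings.

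A pseudocount of 0.1 gave medians of -3.49 and 1.87 for the cytosolic genes in the first 2 comparisons and -3.75, 1.65 and -1.62 for the mitochondrial genes in all 3. In MII DMSO minus GV the mitochondrial median was then the lower one, against -2.53 over all entries. Without a filter, which adds low genes, the medians were -1.32, 0.50 and -0.78 for the mitochondrial genes and 1.41 for the cytosolic genes in BYBX minus DMSO. With a filter at 5 FPKM, which leaves fewer genes, 15 were called down from GV to control MII, 13 up from DMSO to BYBX and 12 down from GV to BYBX. Of all 5508 entries tested there, 4842, 3686 and 3779 were called in the same order. The mitochondrial medians were -0.46, 0.22 and -0.24. With a minimum of 2-fold, 13 were called higher with BYBX, against 3875 of all 9202 entries. For the other moves above the cause was not tested. With each library left out in turn, the medians of the cytosolic genes ran from -3.36 to -2.82, 1.47 to 1.59 and -1.78 to -1.17. Those of the mitochondrial genes ran from -2.17 to -1.77, 0.68 to 0.76 and -1.42 to -0.99.

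The groups share replicate numbers, and no source used here says that a number marks a shared animal, batch or day. Deviations of libraries with the same number correlated at 0.487 and 0.282 between MII DMSO and GV, at -0.601 and -0.348 between BYBX and DMSO and at -0.330 between BYBX and GV. With a replicate block 24 genes were called lower in control MII, 16 higher with BYBX and 20 down from GV to BYBX. Of all 9202 entries, 7777, 5266 and 5962 were called in the same order with the block. Eprs (0.65), Kars (0.77), Lars (0.76), Farsb (0.57) and Sepsecs (0.62) lost their call with BYBX there. With the numbers of the BYBX libraries crossed, a choice made after the values were seen, the counts were 24, 21 and 21, against 8193, 6224 and 6688 of all entries. Depth is unknown here, so that what it limits among the low mitochondrial genes cannot be stated.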
